A study of Mus musculus with 6 samples.

Results

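The 41 genes described here encode proteins that copy DNA, and were chosen by function as a list of DNA replication and S phase genes from the 55487 genes of the count table. All 41 were found in the table by their gene identifiers, and all 41 passed the filter on low counts and are among the 13140 genes tested. They were compared between macrophages grown from 2 kinds of mouse bone marrow cells. In one group the starting cells were TpMos, a label that the sources used here do not spell out, and in the other they were mature Ly6Chi monocytes, that is, monocytes with high surface Ly6C. Both were sorted from marrow, kept in culture for 7 days with the macrophage growth factor CSF-1, and then scraped off for RNA. Each group held 3 libraries made by SMART-seq v2, a full-length method that amplifies cDNA from small amounts of RNA, here 2 ng. The strain, age and number of mice, whether cells were pooled, and the CSF-1 concentration of each sample are not given in the sources used here.

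DNA replication starts with licensing, in which the origin recognition complex, CDC6 and CDT1 load the MCM helicase onto replication origins while a cell is still in G1. At the start of S phase the loaded helicase is activated by MCM10, CDC45 and the GINS complex, and polymerases held on the template by the PCNA clamp copy the opened strands. Ribonucleotide reductase and the thymidylate enzymes supply the deoxynucleotides, and CAF-1 and partners rebuild chromatin behind the fork. Many of these genes are known targets of E2F transcription factors, and cultured macrophages can divide in response to CSF-1.

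Of the 41 genes, 2 rose in TpMo-derived macrophages, 5 fell and 34 did not pass the test. Passing means an edgeR quasi-likelihood p under 0.05 after Benjamini-Hochberg adjustment over all 13140 genes. The genes that rose were Pcna, the sliding clamp, and Mcm6, a helicase subunit. Those that fell were Rrm2 and Tk1, which supply nucleotides, Cdc6, a helicase loader, Mcm10, a helicase activator, and Chaf1b, a histone chaperone subunit. Over all genes tested, 12.3% passed, with 6.54% higher and 5.79% lower in TpMo-derived macrophages. These shares stand beside the counts per step and per list below too. In value, 30 of the 41 genes were lower and 11 higher, whereas 6502 of all genes were lower and 6638 higher. The median log2 fold change (TpMo-derived over Ly6Chi-derived) was -0.24 for the 41 genes and 0.01 for all genes tested. No gene of the 41 was past a 2-fold change.

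Leaving out a single library or changing the tool moved the number of genes that fell more than the number that rose. The number that fell was 8 without TpMo-derived replicate 2, 6 without Ly6Chi-derived replicate 2, 1 without Ly6Chi-derived replicate 3, and 2 without any of the other libraries (TpMo-derived replicates 1 and 3 and Ly6Chi-derived replicate 1). DESeq2 called 9 lower and 3 higher. The number that rose was 2 or 3 throughout. Pcna, Mcm6 and Rrm2 passed in every fit run, and the other 4 genes did not. The sign of 10 genes with values near no change (Cdt1, Mcm3, Mcm5, Mcm7, Gins2, Pola1, Pole, Lig1, Slbp and Tipin) turned when some library was left out. With scaling by library size alone, 33 of the 41 had lower values, because Mcm3, Gins2 and Pola1 turned from just above to just below 0.

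**Figure D1:**
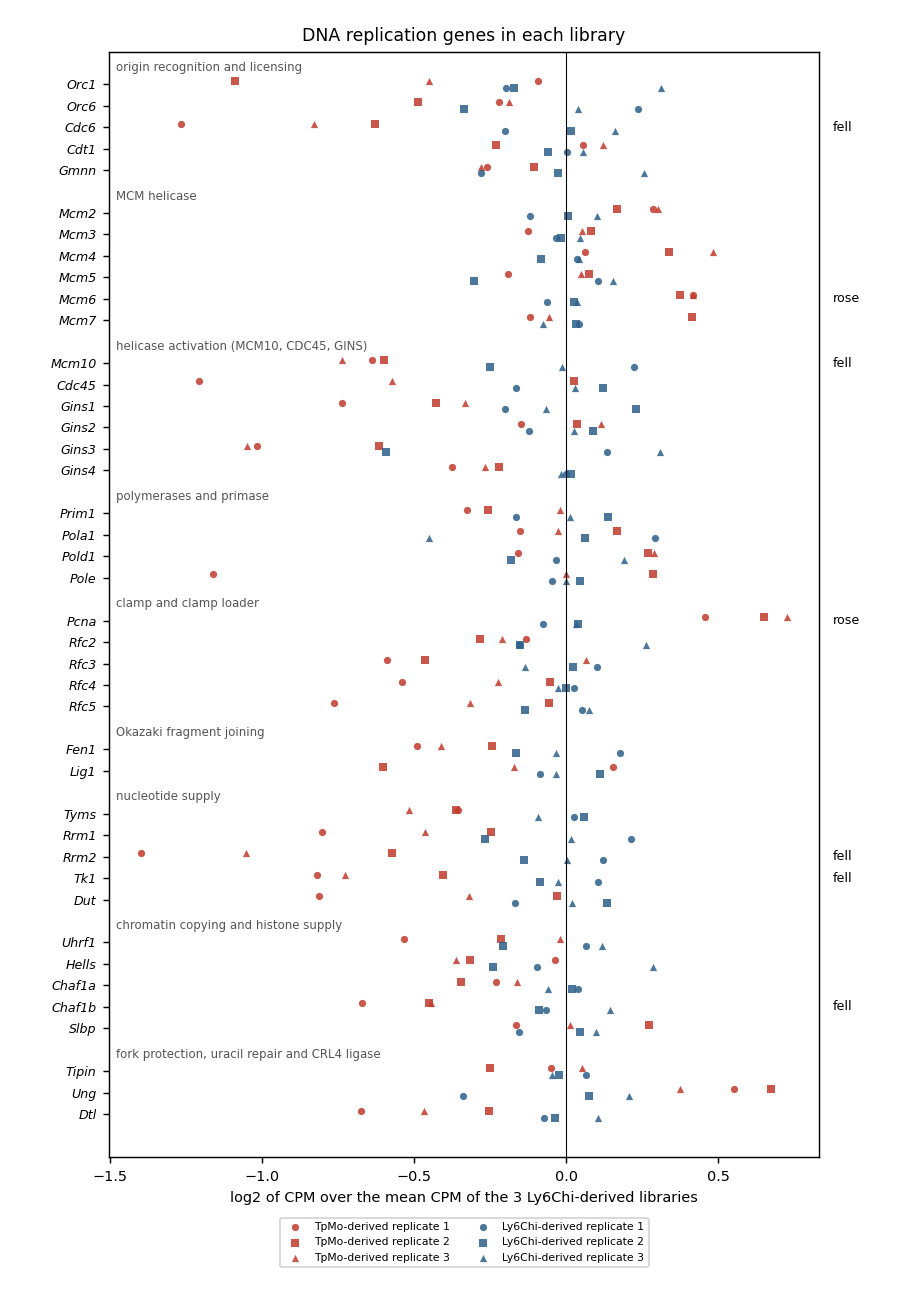
Each point is 1 library's log2 of CPM (counts per 1000000 of the library's scaled total) over the mean CPM of the 3 Ly6Chi-derived libraries, for the 41 genes grouped by step, red for TpMo-derived and blue for Ly6Chi-derived libraries, with the replicate shown by the marker's shape. The genes that passed the test are marked on the right, and the TpMo-derived libraries of Rrm2, Tk1, Cdc6, Mcm10 and Chaf1b lie left of the Ly6Chi-derived ones while those of Pcna and Mcm6 lie right of them.

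The TpMo-derived libraries lay entirely above the Ly6Chi-derived ones for 5 genes (Mcm2, Mcm4, Mcm6, Pcna and Ung) and entirely below them for 13. Over all genes tested, 30.5% did not overlap between groups, 15.3% with TpMo-derived libraries above and 15.2% below. At an unadjusted p under 0.05 stood 15 of the 41, beside 24.4% of all genes tested. In bulk RNA, fewer cells in S phase and less RNA per cell cannot be told apart, so every level below is that of the whole culture.

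The libraries held 23765773 to 33042094 counts on genes, and the smallest count of any of the 41 genes in a library was 74. All 8 macrophage markers were detected, and Csf1r, Adgre1, Fcgr1 and Cd14 rose while Itgam fell. Cd68, Mertk and Lyz2 did not pass. The summed level, most of it Lyz2, was 34774 to 36644 CPM in TpMo-derived and 29704 to 32311 CPM in Ly6Chi-derived libraries. Fibroblast markers were at 0 in all 6 libraries, and so were 5 of 6 T and NK cell markers, Cd3e among them, 4 of 6 B cell markers, 4 of 6 erythroid markers and 4 of 6 dendritic cell markers. The T and NK list summed to 0 CPM in TpMo-derived and to 0 to 1.37 CPM in Ly6Chi-derived libraries, and the B cell list to 2.14 to 4.24 CPM against 1.04 to 4.31 CPM. The erythroid list summed to 0.252 to 0.908 against 0.628 to 1.07 CPM and the dendritic cell list to 0.182 to 0.773 against 0.407 to 0.783 CPM. Of the 6 progenitor markers 2, Flt3 and Myb, were at 0, and the list summed to 11.05 to 18.9 CPM in TpMo-derived and 43.6 to 56.5 CPM in Ly6Chi-derived libraries. Cd34 made up most of this difference, at 4.61 ± 2.56 CPM (SD, n = 3) against 40.6 ± 9.25 CPM, while Kit had the reverse order at 2.15 ± 1.08 against 0.145 ± 0.252 CPM. Of the 10 neutrophil and precursor markers 3, Mpo, Prtn3 and Retnlg, were at 0, and the list, nearly all of it Mmp8, summed to 28.7 to 35.8 CPM against 59.0 to 64.9 CPM. The megakaryocyte and mast cell list, nearly all of it Pf4, summed to 116 to 238 CPM against 30.8 to 44.9 CPM, with 4 of its 6 markers at 0. The part of such cells in the results below was not tested.

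Promoter sequences are shown for some of the members that passed, because replication genes are known for E2F and CCAAT elements near their start. RefSeq windows on GRCm38.p6, from 250 bases before to 50 after a transcript start, were at hand for 33 of the 41 genes, among them all 7 that passed. The windows were searched on both strands for the E2F letters TTTCCCGC, TTTCGCGC, TTTGCCGC and TTTGGCGC and for CCAAT. Capitals mark these matches, all sequences run 5′ to 3′ on the gene's strand, and matches may overlap. Where the gene model of the count table reaches more than 30 bases into the upstream window, only 30 bases around the match are printed. For Cdc6 and Pcna the gene model covers 250 and 134 of the 250 upstream bases. Both of their printed stretches lie inside the counted gene. Tk1, whose upstream window also lies partly inside the gene model but held no match, is therefore not shown. Chaf1b, with the largest p of the 7 and no match either, is also left out, so every printed stretch holds a match. The Mcm6 stretch is chr1:128359706-128359955 (minus strand), Pcna chr2:132253251-132253280 (minus), Rrm2 chr12:24708004-24708253 (plus), Cdc6 chr11:98908002-98908031 (plus) and Mcm10 chr2:5012792-5013041 (minus).
Mcm6: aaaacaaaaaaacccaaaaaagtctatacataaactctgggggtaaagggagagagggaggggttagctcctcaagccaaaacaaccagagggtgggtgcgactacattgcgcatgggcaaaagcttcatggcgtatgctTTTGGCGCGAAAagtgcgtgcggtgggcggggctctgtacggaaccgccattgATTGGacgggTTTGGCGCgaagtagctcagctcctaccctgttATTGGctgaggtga
Pcna: aaccacgggtacgATTGGtccttgaggaga
Rrm2: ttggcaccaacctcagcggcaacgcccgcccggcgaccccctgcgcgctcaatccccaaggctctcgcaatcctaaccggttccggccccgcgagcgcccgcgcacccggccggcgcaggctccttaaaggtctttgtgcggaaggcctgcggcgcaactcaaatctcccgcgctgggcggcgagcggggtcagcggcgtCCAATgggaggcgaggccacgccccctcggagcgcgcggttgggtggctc
Cdc6: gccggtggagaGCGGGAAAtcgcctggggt
Mcm10: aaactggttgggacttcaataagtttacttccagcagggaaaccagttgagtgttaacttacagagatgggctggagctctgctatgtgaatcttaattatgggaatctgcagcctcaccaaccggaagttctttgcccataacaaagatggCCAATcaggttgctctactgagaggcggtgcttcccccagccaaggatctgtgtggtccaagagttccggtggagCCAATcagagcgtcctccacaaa

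An E2F match was in the window of 15 of the 33 genes (45.5%) and in 704 of the 27025 genes with RefSeq windows (2.60%), or in 2.26% of all 32851 windows. CCAAT was in 20 of the 33 (60.6%) and in 41.1% of all genes. The element TTTGAA, known from late cell cycle promoters and searched on both strands, was in 4 of the 33 (12.1%) and in 20.2% of all genes. Among the genes that passed, the E2F letters were in Mcm6, with 3 matches, 2 of them overlapping, and in Cdc6, with 1. CCAAT or its complement was in Mcm6, Pcna, Rrm2 and Mcm10. The windows of Tk1 and Chaf1b held no E2F or CCAAT match. Of the 26 genes with windows that did not pass, 13 held an E2F match, so these letters were in windows of genes that rose, fell and did not pass. A match describes letters and is not a binding site.

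Licensing genes all had lower values in TpMo-derived macrophages, and 1 of the 5 passed. Cdc6 (chromosome 11, 98907801 to 98923940 on GRCm38) loads the helicase together with CDT1. It stood at 21.6, 33.6 and 29.2 CPM in the TpMo-derived libraries and at 45.2, 52.5 and 58.0 CPM in the Ly6Chi-derived ones. All 3 TpMo-derived libraries were below all 3 Ly6Chi-derived ones, with means of 28.1 ± 6.07 and 51.9 ± 6.46 CPM (SD, n = 3). The log2 fold change was -0.89 ± 0.18 (SE), a 1.85-fold fall, with an edgeR adjusted p of 0.0112. Without Ly6Chi-derived replicate 3 the log2 fold change was -0.80 and the edgeR adjusted p 0.0540, which is above the threshold of 0.05.

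Cdt1, the partner of CDC6 in loading, had nearly the same mean in both groups, 113 ± 14.2 and 114 ± 4.62 CPM, with a log2 fold change of -0.01 ± 0.11. Geminin, the CDT1 inhibitor encoded by Gmnn, had -0.21 ± 0.16. The origin recognition subunits Orc1 and Orc6 had -0.49 ± 0.32 and -0.29 ± 0.18. Orc1 was one of the lowest of the 41 genes per length, at 1.86 and 2.61 CPM per kilobase of exon. The groups overlapped for all 4. Within a library, Cdt1 stood at 2.38 to 3.44 CPM per CPM of Gmnn in TpMo-derived and at 2.27 to 3.16 in Ly6Chi-derived libraries, which overlap.

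Helicase genes were the step with the most higher values: of the 6 MCM subunits, which form a ring that unwinds DNA, 5 had higher and 1 lower values (4 and 2 with scaling by library size alone), and 1 passed. Mcm6 (chromosome 1, 128331590 to 128359664) stood at 475, 461 and 474 CPM in TpMo-derived and at 340, 362 and 364 CPM in Ly6Chi-derived libraries. The lowest TpMo-derived library was well above the highest Ly6Chi-derived one, and neither group spread by more than 13.3 CPM (SD). Means were 470 ± 7.96 and 355 ± 13.3 CPM (SD, n = 3), and the log2 fold change was 0.40 ± 0.06 (SE), a 1.32-fold rise with an edgeR adjusted p of 0.00177. Over all alternatives its log2 fold change lay between 0.35 and 0.42, and its edgeR, limma or DESeq2 adjusted p reached at most 0.0138.

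Mcm2 and Mcm4 also had no overlap between groups but did not pass. Mcm2 had 168, 154 and 170 CPM against 127, 138 and 148 CPM, a log2 fold change of 0.25 ± 0.09 with an edgeR adjusted p of 0.0989. Mcm4 had 115, 139 and 153 CPM against 112, 104 and 113 CPM, a log2 fold change of 0.30 ± 0.11 with an edgeR adjusted p of 0.124, and its lowest TpMo-derived library was only just above the highest Ly6Chi-derived one. Mcm2 passed by DESeq2 (adjusted p = 0.0499) and Mcm4 without TpMo-derived replicate 1 (edgeR adjusted p = 0.0351). Mcm3, Mcm5 and Mcm7 overlapped, with log2 fold changes of 0.01 ± 0.08, -0.02 ± 0.12 and 0.10 ± 0.14.

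Per kilobase of exon the subunits of the ring differed in level although they work in one complex. That length takes in the exons of all annotated transcripts of a gene, 6956 bases for Mcm2 and 3589 for Mcm4. How much of the differences between genes comes from this was not tested. Mcm6 was highest, at 101 ± 1.71 and 76.2 ± 2.85 CPM per kilobase in TpMo-derived and Ly6Chi-derived macrophages, followed by Mcm3 at 62.9 and 62.6 and Mcm5, at 50.6 in the Ly6Chi-derived group. Mcm4 stood at 37.8 and 30.6, Mcm2 at 23.6 and 19.8, and Mcm7 at 23.0 and 21.5 CPM per kilobase. Of the 51-base words in Mcm7 transcripts, 22.8% also occur in other annotated transcripts, among them the pseudogene Gm5487, so its level is uncertain. In summed level the 6 subunits had 1237, 1342 and 1342 CPM in TpMo-derived and 1124, 1098 and 1183 CPM in Ly6Chi-derived libraries, which do not overlap.

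Genes that activate the loaded helicase had lower values, in contrast to the helicase itself: 5 of 6 were lower (6 of 6 with scaling by library size alone). Of the 6, 1 passed and 4 did not overlap between groups, beside 12.3% and 30.5% of all genes tested. Mcm10 (chromosome 2, 4989714 to 5012791), which helps the loaded helicase open DNA, stood at 32.9, 33.8 and 30.7 CPM in TpMo-derived and at 59.8, 43.0 and 50.7 CPM in Ly6Chi-derived libraries. The TpMo-derived values were close to each other and below every Ly6Chi-derived one, with means of 32.5 ± 1.59 and 51.2 ± 8.37 CPM (SD, n = 3). The log2 fold change was -0.66 ± 0.15 (SE), a 1.58-fold fall with an edgeR adjusted p of 0.0190. Its call was lost without TpMo-derived replicate 1 (edgeR adjusted p = 0.0534), TpMo-derived replicate 3 (0.0721), Ly6Chi-derived replicate 1 (0.0810) or Ly6Chi-derived replicate 3 (0.0617). Within a library, Mcm6 stood at 14.4, 13.6 and 15.4 CPM per CPM of Mcm10 in TpMo-derived and at 5.69, 8.41 and 7.18 in Ly6Chi-derived libraries.

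GINS is a ring-shaped partner of the active helicase built from 4 subunits. Gins3 had 8.04, 10.6 and 7.86 CPM against 17.9, 10.8 and 20.2 CPM, with a log2 fold change of -0.88 ± 0.28 and an edgeR adjusted p of 0.0699. Its Ly6Chi-derived replicate 2 was close to the TpMo-derived libraries, and without that library the log2 fold change was -1.12 and the edgeR adjusted p 0.0331. With all 6 libraries Gins3 passed by DESeq2 (adjusted p = 0.0240) and in edgeR with no count filter (adjusted p = 0.0331) or at 5 CPM in 3 libraries (adjusted p = 0.0410). Gins1 and Gins4 did not overlap between groups and had -0.49 ± 0.23 and -0.29 ± 0.12, while Gins2 had 0.01 ± 0.16. Of the exon bases of Gins2, 67.3% overlap Gse1 on the other strand, and reads there were dropped by the counting. Cdc45, the remaining component of the active helicase, had -0.50 ± 0.27, with 16.3 CPM in TpMo-derived replicate 1 and 38.5 CPM in replicate 2, so the groups overlapped. Without TpMo-derived replicate 2 its log2 fold change was -0.86 and passed (edgeR adjusted p = 0.0402), and without replicate 1 it was -0.24.

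Of the primase and polymerase genes, 2 of 4 had higher values (1 of 4 with scaling by library size alone), and none passed in edgeR, DESeq2 or limma-voom, or at an unadjusted p under 0.05. Prim1, the catalytic primase subunit that starts each strand with RNA, had the smallest p of the step. It stood at 25.2, 26.4 and 31.2 CPM in TpMo-derived and at 28.1, 34.7 and 31.8 CPM in Ly6Chi-derived libraries, which overlap. Its log2 fold change was -0.20 ± 0.16 (SE) with an edgeR adjusted p of 0.537. Pola1, of the polymerase that extends primers, had 0.00 ± 0.20, and Pold1, of the lagging-strand polymerase, 0.15 ± 0.14. Pole, of the leading-strand polymerase, had -0.17 ± 0.30. Pole was the most variable of the 41 genes among TpMo-derived libraries, with 14.3 CPM in replicate 1, 38.9 in replicate 2 and 31.9 in replicate 3, and without replicate 1 its log2 fold change was 0.15.

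The clamp and its loader differed in direction of value. Pcna (chromosome 2, 132249162 to 132253314), which rings DNA and holds polymerases on it, stood at 454, 519 and 547 CPM in TpMo-derived and at 314, 340 and 338 CPM in Ly6Chi-derived libraries. Every TpMo-derived library was above every Ly6Chi-derived one, with means of 507 ± 47.7 and 331 ± 14.7 CPM (SD, n = 3). The log2 fold change was 0.62 ± 0.08 (SE), a 1.53-fold rise with an edgeR adjusted p of 0.000745. Over all alternatives it lay between 0.56 and 0.69, with an adjusted p of at most 0.00697 by edgeR, limma or DESeq2. Pcna was also the highest of the 41 genes per length, at 211 and 138 CPM per kilobase.

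Pcna shares sequence with a pseudogene: 18.9% of the 51-base words in its transcripts also occur in the annotated transcript of Pcna-ps2. Pcna-ps2 held 162, 181 and 165 counts in TpMo-derived and 88, 97 and 110 in Ly6Chi-derived libraries, while Pcna held 12611 to 14799 and 8646 to 10887. The copy thus held few counts beside the gene, and its groups were ordered as those of Pcna. Reads that map to both were dropped by the counting.

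The RFC subunits load the clamp, and all 4 had lower values, none of which passed in edgeR, DESeq2 or limma-voom, or had an unadjusted p under 0.05. Log2 fold changes were -0.21 ± 0.13 for Rfc2, -0.30 ± 0.19 for Rfc3, -0.26 ± 0.18 for Rfc4 and -0.35 ± 0.17 for Rfc5. Rfc4 did not overlap between groups, with TpMo-derived libraries at 17.0 to 23.8 CPM and Ly6Chi-derived ones at 24.2 to 25.2 CPM. Reads shared with other transcripts make the levels of Rfc2 and Rfc5 less certain, with 15.8% and 13.1% of their 51-base words found elsewhere.

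Both genes of Okazaki fragment joining had lower values, and none passed in edgeR, DESeq2 or limma-voom, or at an unadjusted p under 0.05. Fen1, the nuclease that trims fragment ends, stood at 3.04, 3.60 and 3.21 CPM in TpMo-derived and at 4.83, 3.81 and 4.17 CPM in Ly6Chi-derived libraries. The groups did not overlap, and the log2 fold change was -0.38 ± 0.35 (SE) with an edgeR adjusted p of 0.599. Fen1 was also the lowest of the 41 genes per length, at 1.36 and 1.76 CPM per kilobase. Of its exon bases, 84.2% overlap Gm10143 and Tmem258 on the other strand, where reads were dropped, so its level is uncertain. Lig1, the ligase that seals the fragments, had -0.17 ± 0.18, with TpMo-derived libraries from 39.9 to 67.4 CPM on both sides of the Ly6Chi-derived 57.2 to 65.5 CPM.

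Nucleotide supply held the largest fall, and all 5 genes had lower values. Of the 5, 2 passed and 3 did not overlap between groups, beside 12.3% and 30.5% of all genes tested. Rrm2 (chromosome 12, 24708241 to 24714146), the small subunit of ribonucleotide reductase, whose level is known to follow S phase, stood at 91.99, 163 and 117 CPM in TpMo-derived and at 264, 220 and 243 CPM in Ly6Chi-derived libraries. No TpMo-derived library reached the lowest Ly6Chi-derived one, with means of 124 ± 35.9 and 242 ± 21.7 CPM (SD, n = 3). The log2 fold change was -0.97 ± 0.17 (SE), a 1.96-fold fall with an edgeR adjusted p of 0.00535. Over all alternatives it lay between -1.22 and -0.79, with an adjusted p of at most 0.0365 by edgeR, limma or DESeq2.

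Tk1 (chromosome 11, 117815526 to 117826092), the thymidine kinase that salvages thymidine, stood at 32.8, 43.7 and 34.9 CPM in TpMo-derived and at 62.2, 54.5 and 56.7 CPM in Ly6Chi-derived libraries. The groups did not overlap, and the means were 37.1 ± 5.79 and 57.8 ± 3.97 CPM (SD, n = 3). The log2 fold change was -0.64 ± 0.15 (SE), a 1.56-fold fall with an edgeR adjusted p of 0.0173. The Tk1 call was lost without TpMo-derived replicate 1 (edgeR adjusted p = 0.0620), TpMo-derived replicate 3 (0.0697), Ly6Chi-derived replicate 1 (0.0737) or Ly6Chi-derived replicate 3 (0.0541).

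The other nucleotide genes had lower values that did not pass. Rrm1, the large reductase subunit, stood at 140, 206 and 177 CPM against 283, 203 and 247 CPM, a log2 fold change of -0.49 ± 0.15 with an edgeR adjusted p of 0.0631, and it overlapped by a single pair of libraries. Tyms, which makes thymidylate, had 34.2 to 38.2 CPM against 45.9 to 50.9 CPM, a log2 fold change of -0.41 ± 0.13 with an edgeR adjusted p of 0.0676. Among other alternatives, both passed with scaling by library size alone (edgeR adjusted p = 0.0480 and 0.0463) and by DESeq2 (adjusted p = 0.0133 and 0.0101). Dut, which removes dUTP, had -0.35 ± 0.24.

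Ratios within a library do not depend on its scaling. Rrm2 stood at 0.656, 0.791 and 0.660 CPM per CPM of Rrm1 in TpMo-derived and at 0.932, 1.09 and 0.984 in Ly6Chi-derived libraries. Pcna stood at 4.94, 3.19 and 4.68 CPM per CPM of Rrm2 in TpMo-derived and at 1.19, 1.55 and 1.39 in Ly6Chi-derived libraries. Neither ratio overlapped between groups. These pairs were chosen with the values known, and for Pcna and Rrm2, as for Mcm6 and Mcm10 above, which did not overlap in opposite directions, the ratio restates the separate differences. Mcm6 per Mcm2 did not overlap either but differed less, with 2.79 to 2.99 against 2.47 to 2.68.

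**Figure D2:**
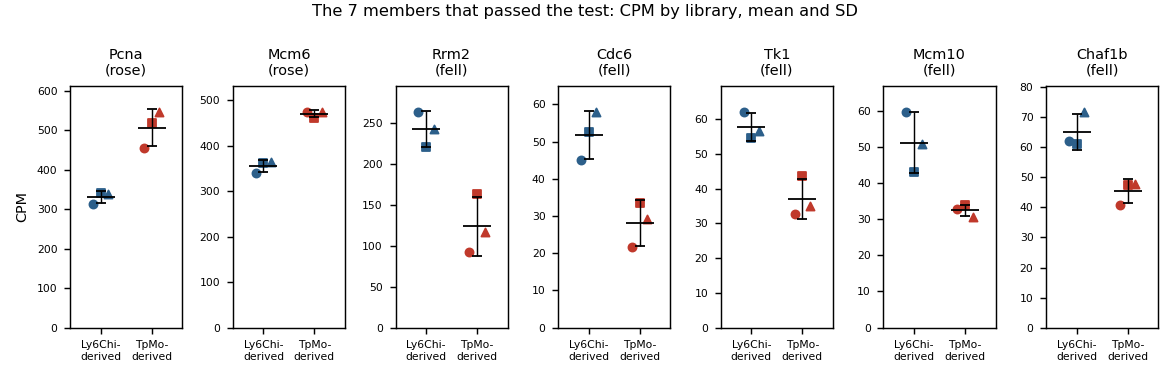
CPM in each library for the 7 genes that passed, each on its own linear axis from 0, with the mean and SD of 3 libraries in black and the replicate shown by the marker's shape. Pcna and Mcm6 were higher in all 3 TpMo-derived libraries, and Rrm2, Cdc6, Tk1, Mcm10 and Chaf1b were lower in all 3.

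Chromatin genes had lower values in 4 of 5 cases, and 1 passed. Chaf1b (chromosome 16, 93883901 to 93906115), a subunit of CAF-1 that places histones on new DNA, stood at 40.8, 47.6 and 47.8 CPM in TpMo-derived and at 62.2, 61.1 and 71.9 CPM in Ly6Chi-derived libraries. The groups did not overlap, with means of 45.4 ± 3.99 and 65.1 ± 5.92 CPM (SD, n = 3). The log2 fold change was -0.52 ± 0.13 (SE), a 1.43-fold fall with an edgeR adjusted p of 0.0243. The Chaf1b call was lost without TpMo-derived replicate 1 (edgeR adjusted p = 0.0797), TpMo-derived replicate 3 (0.0561), or Ly6Chi-derived replicate 1 (0.0557), 2 (0.0531) or 3 (0.0953).

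Chaf1a, the large CAF-1 subunit, had TpMo-derived libraries at 29.7 to 33.7 CPM below Ly6Chi-derived ones at 36.2 to 38.8 CPM, with a log2 fold change of -0.24 ± 0.14 and an edgeR adjusted p of 0.324. Of its exon bases, 52.5% overlap Ubxn6 on the other strand. Uhrf1, which guides DNA methylation to new strands, had -0.24 ± 0.14, and the chromatin remodeller Hells had -0.23 ± 0.18. Slbp, which binds the stem-loop of histone mRNAs, had 0.05 ± 0.13. The groups overlapped for Uhrf1, Hells and Slbp.

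Of the remaining 3 genes, none passed in edgeR or limma-voom with all 6 libraries, 2 had an unadjusted p under 0.05, and 1, Dtl, passed in DESeq2. Dtl, the subunit that directs the CRL4 ubiquitin ligase to CDT1 on PCNA, stood at 29.2, 39.0 and 33.6 CPM in TpMo-derived and at 44.2, 45.3 and 50.1 CPM in Ly6Chi-derived libraries. The groups did not overlap, and the log2 fold change was -0.46 ± 0.15 (SE) with an edgeR adjusted p of 0.0805 and a DESeq2 adjusted p of 0.0224. Without TpMo-derived replicate 2 it passed in edgeR too (adjusted p = 0.0481, log2 fold change -0.57). Ung, which removes uracil from DNA, had the reverse order, with 20.7, 22.6 and 18.3 CPM against 11.2, 14.9 and 16.3 CPM. Its log2 fold change was 0.54 ± 0.21 with an edgeR adjusted p of 0.139. Tipin, which steadies stalled forks, had -0.08 ± 0.13 with overlapping groups.

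**Figure D3:**
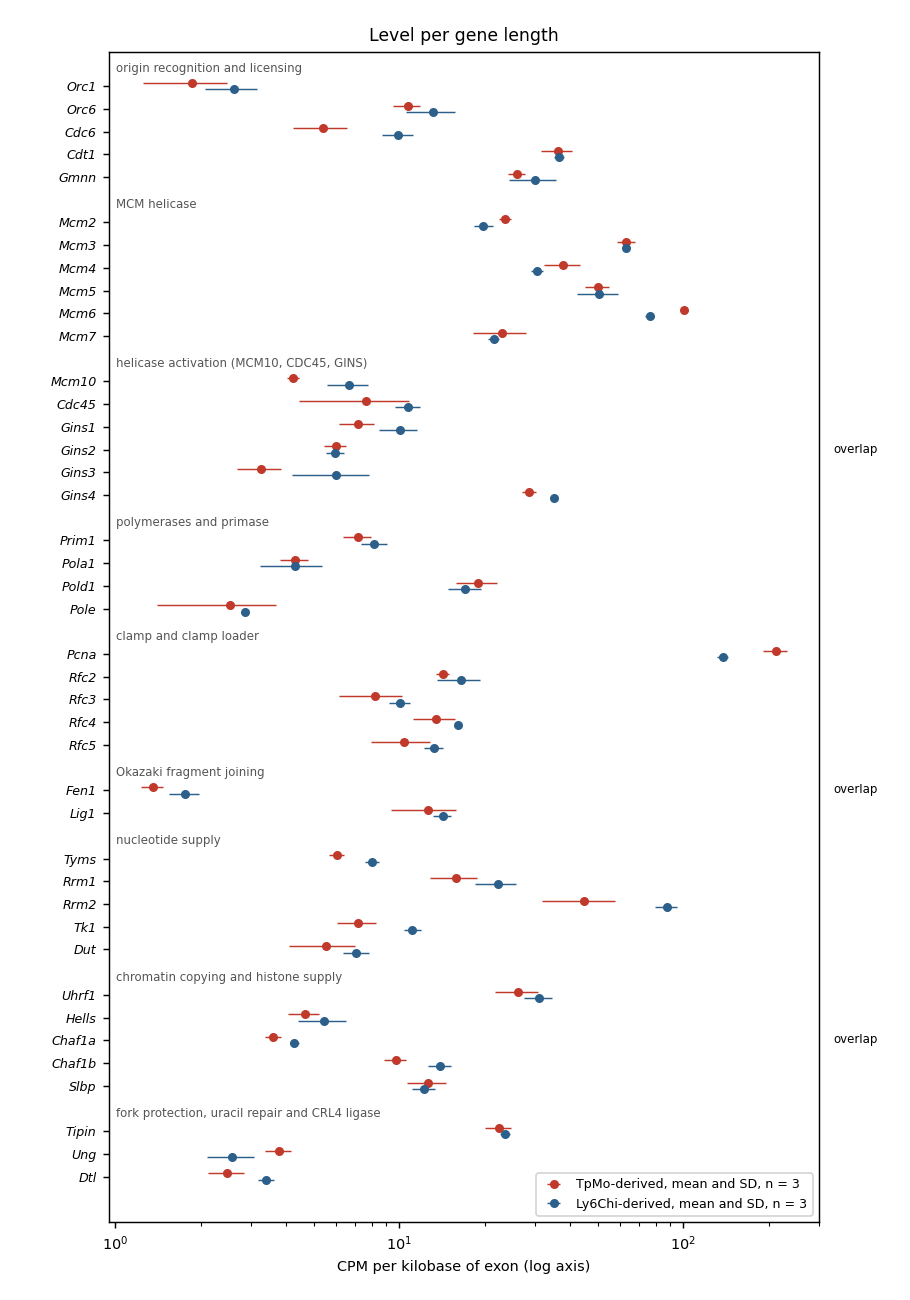
Mean CPM per kilobase of exon with SD over 3 libraries on a log axis, for the 41 genes by step, red for TpMo-derived and blue for Ly6Chi-derived macrophages. Pcna was highest and Fen1 lowest, and "overlap" marks the 3 genes with more than 50% of their exon bases shared with another gene.

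Summed by step, levels differed between groups in both directions. Nucleotide supply summed to 313, 467 and 376 CPM in TpMo-derived and to 674, 547 and 609 CPM in Ly6Chi-derived libraries, and helicase activation to 125, 160 and 142 CPM against 194, 186 and 195 CPM. The clamp and its loader, most of it Pcna, summed to 626, 714 and 746 CPM against 535, 552 and 585 CPM. The 41 genes together summed to 3094, 3544 and 3504 CPM against 3461, 3298 and 3584 CPM, which overlap. A total over the genes thus hid step sums that were higher and step sums that were lower. A sum follows its most abundant genes. Of the 5 clamp and loader genes, 4 had lower values, and their median log2 fold change was -0.26. In the higher helicase sum given above, Mcm6 had the highest level and was the only gene that passed.

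Within both groups, some libraries were the lowest or highest for many of the 41 genes. TpMo-derived replicate 1 was the lowest of its group for 26 of the 41 genes, beside 35.0% of all genes tested, and replicate 2 was the highest for 21, beside 33.8%. Ly6Chi-derived replicate 1 was the lowest of its group for 18, beside 34.4%, and replicate 3 the highest for 19, beside 33.6%. The median log2 deviation from the group mean was -0.15 in replicate 1, 0.07 in replicate 2 and 0.05 in replicate 3. In the Ly6Chi-derived group the same medians lay between -0.03 and 0.04. The median coefficient of variation was 12.6% in TpMo-derived and 9.10% in Ly6Chi-derived libraries, and it was larger in TpMo-derived libraries for 27 of the 41 genes, beside 55.4% of all genes tested. Without TpMo-derived replicate 1, the median log2 fold change of the 41 genes was -0.18.

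Other genes of the replication machinery were a list of 47 that holds further subunits, checkpoint partners and nucleotide enzymes. The list gave 6 genes that rose and 3 that fell, beside 6.54% and 5.79% of all genes tested, while 38 stayed above the threshold. In the middle of this list stood a log2 fold change of -0.08 (its median). Among those that passed, Asf1b, a histone chaperone, fell with a log2 fold change of -0.89 ± 0.14 (79.0 ± 13.4 against 146 ± 16.8 CPM). Pclaf, a PCNA-binding protein, fell with -0.90 ± 0.20 (28.2 ± 8.05 against 52.5 ± 5.18 CPM). Samhd1, which breaks down deoxynucleotides, rose with 0.69 ± 0.14 (151 ± 8.77 against 93.3 ± 20.2 CPM). Mtbp, a partner of the origin-firing factor TICRR, rose with 1.09 ± 0.25 (13.2 ± 2.01 against 6.18 ± 0.77 CPM). The nucleotide enzymes Dck, Dctd and Dtymk, which help make deoxynucleotides, rose as well, with 0.44 ± 0.11, 1.59 ± 0.42 and 0.67 ± 0.16, so that genes of nucleotide supply and breakdown passed in both directions over the 2 lists. For this list, 1 to 3 genes rose and 1 to 4 fell without 1 library at a time, fewer rising whichever library was left out.

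Regulators of S phase entry, of which 22 of 23 were tested (Cdkn1c was not), gave 1 that rose and 5 that fell, with a median log2 fold change of -0.30. Ccna2, the S phase cyclin, fell with -1.48 ± 0.24 (37.8 ± 13.7 against 106 ± 22.9 CPM), and E2f2, an activating E2F, with -0.97 ± 0.19 (15.5 ± 1.14 against 30.4 ± 5.89 CPM). The cell cycle inhibitor Cdkn1a fell with -0.53 ± 0.10 (348 ± 32.8 against 501 ± 55.8 CPM), and Tfdp2, a dimer partner of E2F, with -0.81 ± 0.20. E2f2 and Cdkn1a, with opposite known roles in the cycle, thus both fell. Ccne2, a cyclin, also fell, with -0.59 ± 0.14. The 1 that rose was Myc, with 0.47 ± 0.12 (172 ± 13.2 against 124 ± 20.9 CPM). E2f1, picked after its value was seen, had -0.16 ± 0.15 and did not pass (edgeR adjusted p = 0.585). E2f3, E2f4, E2f6, E2f7 and E2f8 did not pass either. Their log2 fold changes ran from -0.82 (E2f8) to 0.10 (E2f6).

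Genes of the G2 and M phases were lower by more: of 30, 24 fell, beside 5.79% of all genes tested. The list's median log2 fold change was -1.34. None rose in edgeR, DESeq2 or limma-voom, and 0 had a higher value. Their summed level was 880, 1361 and 859 CPM in TpMo-derived and 2963, 2083 and 2211 CPM in Ly6Chi-derived libraries. The highest TpMo-derived sum, in replicate 2, is from the library that was also highest for 21 of the 41 replication genes. Plk1, a mitotic kinase, had the smallest p, with a log2 fold change of -1.84 ± 0.14, and the kinetochore motor Cenpe had -1.58 ± 0.18. The centromere protein Cenpa fell with a log2 fold change of -1.66 ± 0.22 (22.3 ± 7.59 against 70.3 ± 6.95 CPM) and Hmmr, a spindle protein, with -1.72 ± 0.21 (19.7 ± 4.14 against 65.3 ± 14.8 CPM). The difference between lists was not tested, and the medians stand beside 0.01 for all genes.

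**Figure D4:**
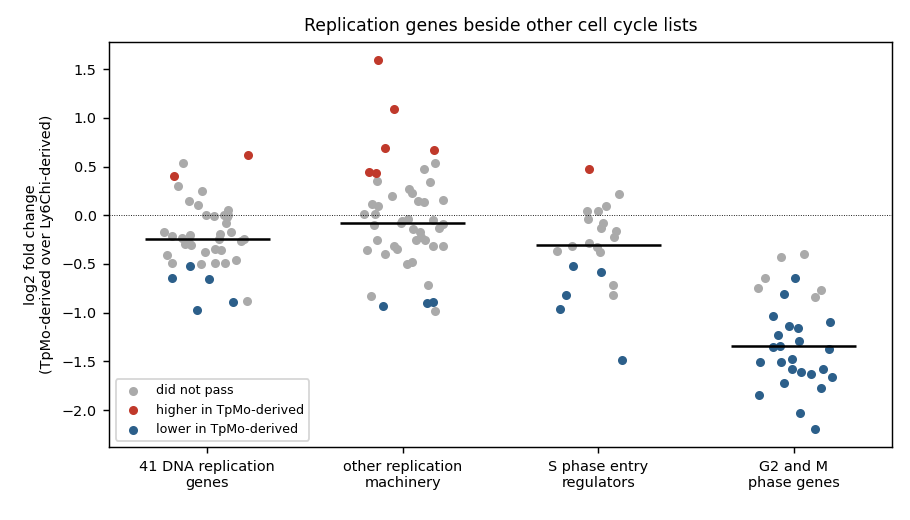
Log2 fold change (TpMo-derived over Ly6Chi-derived) of each tested gene in 4 lists, with the median as a black line, red for genes that rose, blue for genes that fell and grey for genes that did not pass. The medians are -0.24 for the 41 DNA replication genes, -0.08 for the other replication machinery, -0.30 for S phase entry and -1.34 for G2 and M.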

How the data were processed

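RNA from cultured macrophages was sequenced in 6 paired-end libraries. The values deposited by the authors are raw counts of reads on each gene, made, per the file header, with featureCounts 1.6.3 over GENCODE M22 exons. STAR and GRCm38 come from the submitters' processing notes, without a version for the aligner. No strand or pair option is in the header, so mates count separately, strand is ignored, and reads on several genes or places were left out. Symbols came from GENCODE M21, in which 55394 identifiers matched and 93 did not. The deposited exon length, which counts the exons of all annotated transcripts, served for levels per kilobase, so these compare different genes only roughly.

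The test was run in edgeR 4.0.16 under R 4.3.3: filterByExpr (minimum count 10, minimum total 15), TMM scaling, the robust quasi-likelihood test over all 6 libraries with no covariate, and Benjamini-Hochberg adjustment over 13140 genes, with a threshold of 0.05. SE is the absolute log2 fold change over the root of its F statistic. CPM values of genes use TMM-adjusted totals, whereas sums of marker lists and the floor below use unadjusted library totals. Alternatives were library size or median-ratio scaling, other filters, DESeq2 1.42.0, limma-voom 3.58.1, moderation without robustness, a stricter threshold and leaving out each library. The scripts were checked on simulated counts. Replicates were numbered in accession order. The labels do not tie them to separate animals or cultures. The p-values therefore reflect the spread of these 6 samples only, and that spread may be technical. Within groups the chi-square per degree of freedom between libraries was 22.1 to 36.5, above counting noise. A floor of 3 counts is 0.0908 to 0.126 CPM and covers counting error only.

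The 41 genes and the other lists were chosen with earlier results of these data known. All 41 genes are named. Full values go to those that passed and, in a step with none, to the gene with the smallest p. Up to 4 genes with the smallest p are given per further list. Beyond that rule, Dck, Dctd, Dtymk, Ccne2, Myc and E2f1 were added after their values were seen, and so was the range of the other E2F genes. Values per library of Mcm2, Mcm4, Gins3, Rrm1, Pole and Ung were added after they were seen. Promoter windows came from RefSeq on GRCm38.p6.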

Additional observations from a re-analysis of the deposited data

How the results depend on the processing

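Fen1 rested on 74 to 134 counts per library and Orc1 on 115 to 362, the shallowest of the 41 genes, and 3 libraries per group limit the precision. Of 41 genes, 2 rose and 5 fell. DESeq2 called 9 lower, and a threshold of 0.01 left 1 lower. Without 1 library at a time the lower count ran from 1 to 8. For the other replication machinery, 3 fell, but 5 fell with no count filter, with at least 5 CPM in 3 libraries and by DESeq2. At 0.01 that list had 1 lower and 0 higher, and without 1 library 1 to 4 lower and 1 to 3 higher. Over all genes, 859 rose and 761 fell. DESeq2 called 1165 lower, 0.01 left 454 higher and 331 lower, and leaving out 1 library gave 531 to 750 higher and 445 to 742 lower. Why these counts moved was not tested.

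Genes near no change switched sign. With library size alone, log2 fold changes were -0.0421 for Mcm3, -0.0433 for Gins2 and -0.0475 for Pola1. Without a count filter they were -0.000598 for Mcm3, -0.00187 for Gins2 and -0.00411 for Pola1, by limma-voom -0.00449 for Mcm3 and -0.00955 for Gins2, and at 5 CPM -0.00174 for Pola1. Leaving out 1 library gave ranges of -0.0809 to 0.0882 for Cdt1, -0.0331 to 0.0664 for Mcm3, -0.159 to 0.0607 for Mcm5, -0.0877 to 0.198 for Mcm7, -0.0594 to 0.0753 for Gins2, -0.184 to 0.168 for Pola1, -0.472 to 0.150 for Pole, -0.372 to 0.000864 for Lig1, -0.0757 to 0.147 for Slbp and -0.147 to 0.00186 for Tipin. Scaling by library size alone moved the median of all genes by -0.05 on the log2 scale. No paired analysis was possible because the labels give no replicate numbers, animals or batches.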
